A study of Mus musculus with 7 samples.

Results

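Interferon-stimulated genes were followed in neutrophils sorted from the livers of mice with acetaminophen-induced liver injury (AILI), with and without antibody-mediated removal of Ly6Chi monocytes. The list held 43 genes known to be induced by type I or type II interferon, taken by their symbol from the table of RPKM values (read numbers scaled to the length of the gene and to the depth of the library). All 43 were present among the 16047 genes of the table, and 38 averaged 1 RPKM or more across the 7 libraries, the same limit that left 9594 genes for testing. The other 5 were Ifit1, Cmpk2, Ifi44, Mx1 and Gbp5. Ifit1 was just under the limit with a mean of 0.9998 RPKM, and Iigp1 and Mx2 were the members just above it with 1.14 and 1.21 RPKM.

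The mice were young adult C57BL/6 males, and all 7 received acetaminophen (APAP), so that no uninjured liver was included. One group was injected with 400 µL of medium holding 29 µg/mL of MC-21, an antibody to the chemokine receptor CCR2 that removes circulating Ly6Chi monocytes, from 12 h before APAP and every 24 h (3 mice, replicates 2 to 4). The other group received PBS and no control antibody (4 mice, replicates 5 to 8), so that an effect of antibody as such and of monocyte loss cannot be told apart. At 24 h after AILI, 50000 cells per liver were sorted as CD11b+Ly6CloCX3CR1-GFP-Ly6G+, where the GFP gate belongs to a Cx3cr1 reporter that the strain label does not mention, and their RNA was read by 3' RNA-seq. These are referred to as PBS neutrophils and MC-21 neutrophils.

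Interferons are cytokines that signal through cell-surface receptors and the kinases of the JAK family. Type I and type III interferons activate a complex holding STAT2 and IRF9 that binds the interferon-stimulated response element (ISRE), whereas interferon-gamma acts through the gamma-activated site (GAS). The induced genes encode antiviral and antibacterial effectors, nucleic acid sensors and factors such as IRF7 that amplify the response, and neutrophils carry receptors for these cytokines.

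To show what is shared upstream of these genes, promoter windows from 250 bases before to 50 bases after the start were taken from RefSeq (GRCm38.p6) for the 30 members with an entry. Only the 250 bases before the start were searched. The ISRE core was searched on both strands as GAAA, any pair of bases, then GAAA, and cores that overlap were each counted. It was present in 14 of the 30 members (46.7%), in 3.46% of all 27025 genes with a window and in 3.54% of the 7448 tested genes with one. The GAS was searched as TTCNNNGAA, which reads the same on both strands, and was present in 7 of the 30 members (23.3%) against 8.13% of all genes and 7.18% of the tested genes. These matches describe letters in the windows and do not show that a factor was bound.

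The parts of the windows that lie before the annotated gene are given below for 4 members with a core, chosen because they encode widely used markers of the interferon response and include the abundant Bst2. Isg15, with 3 overlapping cores, lies at chr4:155574928-155575087 on the minus strand of mm9. Ifit3 has 2 cores at chr19:34657859-34658018 on the plus strand. Rsad2 has 1 core at chr12:27141318-27141477 on the minus strand, and Bst2 has 2 overlapping cores at chr8:74061372-74061531 on the minus strand. All are written 5' to 3' along the strand of the gene, and capitals mark the ISRE core on either strand.
Isg15: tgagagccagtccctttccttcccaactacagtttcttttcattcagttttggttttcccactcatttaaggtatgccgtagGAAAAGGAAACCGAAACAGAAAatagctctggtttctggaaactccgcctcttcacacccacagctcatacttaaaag
Ifit3: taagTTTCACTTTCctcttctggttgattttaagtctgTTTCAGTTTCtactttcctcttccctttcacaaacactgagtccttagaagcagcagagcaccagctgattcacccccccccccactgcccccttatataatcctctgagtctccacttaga
Rsad2: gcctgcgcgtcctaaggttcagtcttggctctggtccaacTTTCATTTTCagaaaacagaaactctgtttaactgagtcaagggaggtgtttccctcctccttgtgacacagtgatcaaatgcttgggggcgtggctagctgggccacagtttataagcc
Bst2: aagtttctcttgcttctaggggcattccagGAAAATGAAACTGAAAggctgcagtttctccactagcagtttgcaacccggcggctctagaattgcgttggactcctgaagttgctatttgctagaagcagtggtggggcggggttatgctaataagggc

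Irf7 at chr7:148452381-148452483 (mm9, minus strand) and Slfn1 at chr11:82930162-82930321 (mm9, plus strand) are also shown, since they were the members that differed most clearly between the groups. Neither window held the ISRE core in these letters. Slfn5, which was also higher without overlap, did hold a core. Members whose groups overlapped, such as Irf9, Ifitm3 and Oasl1, held none, so lack of a core did not mark the members that differed.
Irf7: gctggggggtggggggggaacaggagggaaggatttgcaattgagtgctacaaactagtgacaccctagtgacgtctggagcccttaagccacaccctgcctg
Slfn1: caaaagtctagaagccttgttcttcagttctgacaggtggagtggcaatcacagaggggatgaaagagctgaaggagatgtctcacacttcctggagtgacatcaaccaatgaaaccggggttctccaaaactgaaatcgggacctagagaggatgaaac

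The libraries were checked for their identity before the members were compared. All 12 neutrophil markers were above 1 RPKM on average, with Csf3r, the receptor for granulocyte colony-stimulating factor, between 269.6 and 328 RPKM in every library. Of these markers, 4 had an unadjusted p under 0.05 and none an adjusted p under 0.05. S100a8, Retnlg and S100a9 were higher in MC-21 neutrophils by 0.83, 0.83 and 0.46 on the log2 scale, and Camp was lower, with a log2 fold change of -1.89. The part of this shift in the members' values was not tested. Markers of monocytes and macrophages were also present, and their summed level was 462 to 545 RPKM in PBS and 211 to 274 RPKM in MC-21 neutrophils. Most of this sum came from C1qa, C1qb and C1qc, with means of 117, 155 and 76.3 RPKM in PBS neutrophils. Of the 11 tested, 5 were lower in MC-21 neutrophils (Ccr2, Fcgr1, C1qa, C1qb and C1qc) by limma's moderated test with Benjamini-Hochberg adjustment over all 9594 genes, each with an adjusted p of at most 0.0287. Ccr2 and Cx3cr1 passed 1 RPKM only through PBS neutrophils (2.42 and 2.10 RPKM, against 0.20 and 0.63 RPKM), which favoured this direction. The groups overlapped for Ly6c2, Csf1r, Adgre1 and Ms4a7 (log2 fold changes -0.25, -0.58, 0.019 and -0.86). The other 7 were lower without overlap, as were 10.2% of all genes. Summed liver endothelial markers ranged from 880.4 to 2104 RPKM and summed hepatocyte markers from 144 to 388 RPKM, with overlapping groups. Summed T and NK cell markers were 55.1 to 120.4 RPKM in PBS and 55.5 to 172 RPKM in MC-21 neutrophils, and summed B cell markers 10.7 to 29.9 RPKM in PBS and 6.14 to 9.73 RPKM in MC-21 neutrophils. Of the 6 plasmacytoid dendritic cell markers, Tcf4, Klk1 and Cox6a2 averaged 1 RPKM or more, with Tcf4 at 7.40 to 12.1 RPKM, whereas Siglech stayed at or under 0.847 RPKM and Ccr9 at or under 0.402 RPKM. Summed values of that list were 9.83 to 17.7 RPKM with overlapping groups. The sorted material is bulk RNA, in which fewer cells of a type and less RNA per cell cannot be told apart. One RPKM in a transcript of 1 kb corresponded to 1.59 to 3.96 reads, fewest in MC-21 replicate 3.

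Across the 38 members the difference between the groups was centred where that of all genes was, and Irf7, Slfn1 and Slfn5 lay above it without overlap. No member had an adjusted p under 0.05, against 0.625% of all genes tested (60 genes). At the study's own limits of an unadjusted p under 0.05 and a change of at least 2-fold, only Irf7 passed, with a higher level in MC-21 neutrophils. These limits were passed by 1.02% of all genes in the higher direction and by 1.68% in the lower direction. With p alone, 3 members passed (Irf7, Slfn1 and Ifitm1), all higher in MC-21 neutrophils, where 3.59% of all genes were higher and 11.2% lower. The groups did not overlap for 3 members that were higher (Irf7, Slfn1 and Slfn5) and 1 that was lower (Mx2), against 3.1% of all genes higher and 10.2% lower. Mx2 passed the limit of 1 RPKM only through PBS neutrophils, so the limit favoured its lower direction.

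The log2 fold change of MC-21 over PBS neutrophils, on the scale of log2(RPKM + 1), ranged over the 38 members from -0.72 for Gbp3 to 1.36 for Irf7. Its median of -0.14 was close to the median of all tested genes, -0.15. Lower values in MC-21 neutrophils were found for 25 of the 38 members (65.8%) and for 69.4% of all genes. Both shares depended on scaling. After each library was centred on its median, 14 of the 38 members were lower and the median over all genes moved to 0.018. The share of all genes with p under 0.05 that were higher then moved from 24.3% to 61.1%, and the 4 members with p under 0.05 after centring were all higher. Lower members with p under 0.05 did appear in other alternatives, beside 3 or 4 higher ones. There was 1 without a variance trend, and there were 3 after adjusting for the second principal component. Leaving out MC-21 replicate 2, MC-21 replicate 3, PBS replicate 6 or PBS replicate 7 gave 1 each. The remaining alternatives gave none. Leaving out MC-21 replicate 4 turned the members' median to 0.068 and left 13 of 38 lower, with a median of -0.10 over all genes.

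**Figure D1:**
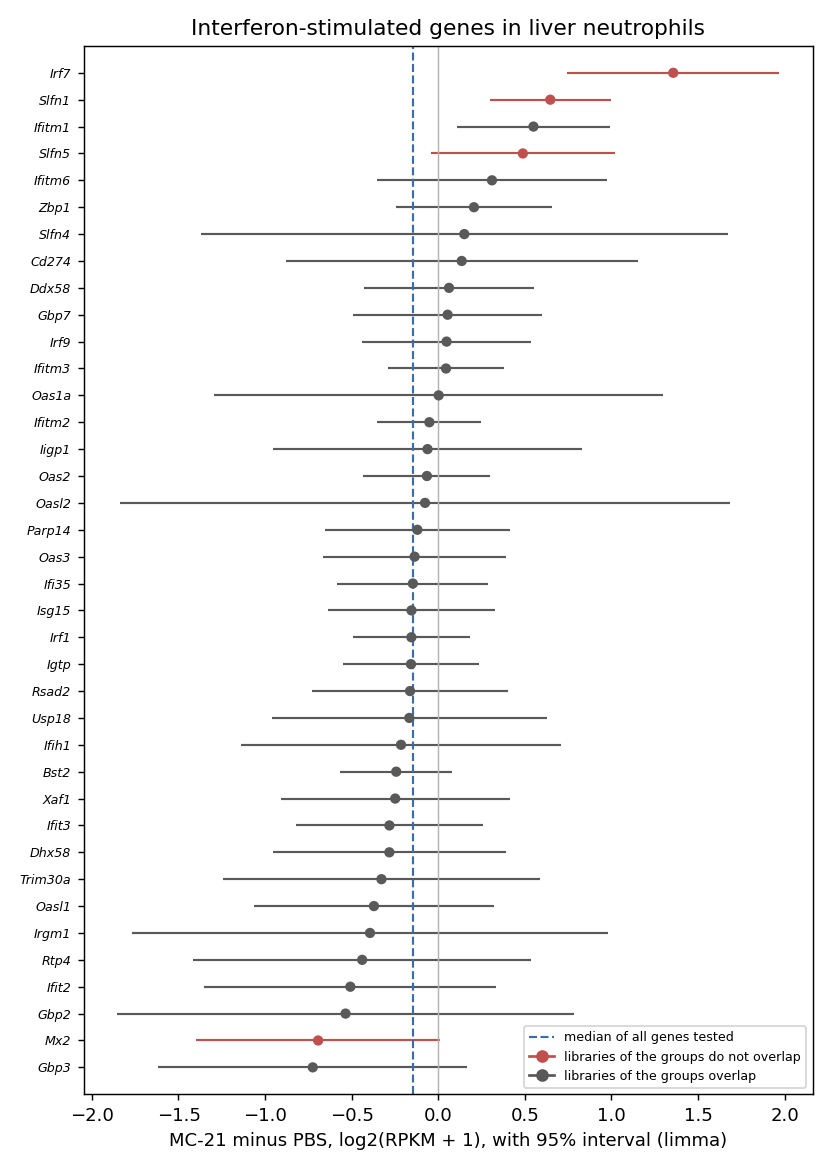
Log2 fold change of MC-21 over PBS neutrophils for the 38 interferon-stimulated genes, on the scale of log2(RPKM + 1), with 95% intervals from limma (4 PBS and 3 MC-21 libraries). The dashed line is the median of all 9594 genes tested (-0.15). Irf7, Slfn1 and Slfn5 at the top and Mx2 near the bottom are drawn in red because the libraries of their groups did not overlap.

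Irf7, Irf9 and Irf1 are the transcription factors among the members. IRF7 drives the genes of type I interferons and is itself induced by them. Its gene lies at chr7:148448605-148452380 (mm9, minus strand). The RPKM of Irf7 was 67.7, 142, 94.0 and 92.7 in PBS replicates 5 to 8 and 348, 236 and 184 in MC-21 replicates 2 to 4. The 3 MC-21 values all exceeded the 4 PBS values, and the spread within each group was wide, with means of 99.2 ± 31.3 RPKM (SD, n = 4) and 256 ± 84.0 RPKM (SD, n = 3). The difference was 2.56-fold, or 1.36 on the log2 scale (standard error 0.27, 95% interval 0.74 to 1.97), with an adjusted p of 0.0697 by limma. In a two-sided exact permutation test on RPKM alone p was 0.0286, the smallest that 35 possible assignments of the libraries can give. A gene singled out because its groups did not overlap is favoured in this test, so its p adds no separate support. The adjusted p passed the threshold in 3 of 15 alternative analyses. It was 0.0323 after centring, 0.00951 with the second principal component as covariate and 0.0318 without PBS replicate 6, the PBS library with the highest Irf7. Its highest value was 0.28, with ordinary residual variance. The log2 fold change lay between 1.11 and 1.57 in all 15. None of the 50-base words of Irf7 transcripts was held by another gene, and its lowest value rested on about 419 reads. Summed monocyte and macrophage markers were lower in the MC-21 group, and within it both that sum (274, 250.1 and 211 RPKM) and Irf7 were highest in replicate 2 and lowest in replicate 4. The part of other cell types in the Irf7 difference was not tested.

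Irf9, the DNA-binding subunit of the factor that recognises the ISRE, showed no such separation. Its RPKM was 78.0, 48.7, 52.7 and 74.9 in PBS and 53.7, 81.8 and 60.7 in MC-21 neutrophils. The groups overlapped over most of their range, with a log2 fold change of 0.048 (95% interval -0.44 to 0.54). Irf1, a factor induced strongly by interferon-gamma, was at 60.1 ± 7.35 RPKM (SD, n = 4) in PBS and 53.8 ± 5.61 RPKM (SD, n = 3) in MC-21 neutrophils, a log2 fold change of -0.16.

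The Schlafen genes, a family linked to the growth and activation state of immune cells, included 2 of the 4 members without overlap. Both were higher, as were 3.1% of all genes tested. The groups overlapped for Slfn4, and for Slfn2 and Slfn8, which were tested but are not members (log2 fold changes of 0.25 and 0.057). Slfn1 (chr11:82930351-82936172, mm9, plus strand) had 59.0, 80.0, 79.0 and 64.7 RPKM in PBS and 101, 120.4 and 110.2 RPKM in MC-21 neutrophils. Its libraries were tightly grouped on both sides of the gap. The difference was 1.57-fold, or 0.65 on the log2 scale (standard error 0.15, adjusted p = 0.11 by limma, exact permutation p = 0.0286). Slfn5, on the same chromosome at 82764851 to 82776443, had 3.80, 7.52, 5.52 and 7.84 RPKM in PBS and 8.74, 9.76 and 7.93 RPKM in MC-21 neutrophils. The highest PBS library and the lowest MC-21 library of Slfn5 nearly met. Its log2 fold change was 0.49 (95% interval -0.044 to 1.02, adjusted p = 0.38 by limma, exact permutation p = 0.11). Of the 50-base words in the last 500 bases of Slfn5, 12.9% were shared with another gene. Slfn4 behaved otherwise. It had 12.0, 52.3, 94.3 and 20.6 RPKM in PBS and 87.0, 24.3 and 24.3 RPKM in MC-21 neutrophils, so that each group held high and low libraries and the fold change of 0.15 on the log2 scale had an interval from -1.37 to 1.67.

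**Figure D2:**
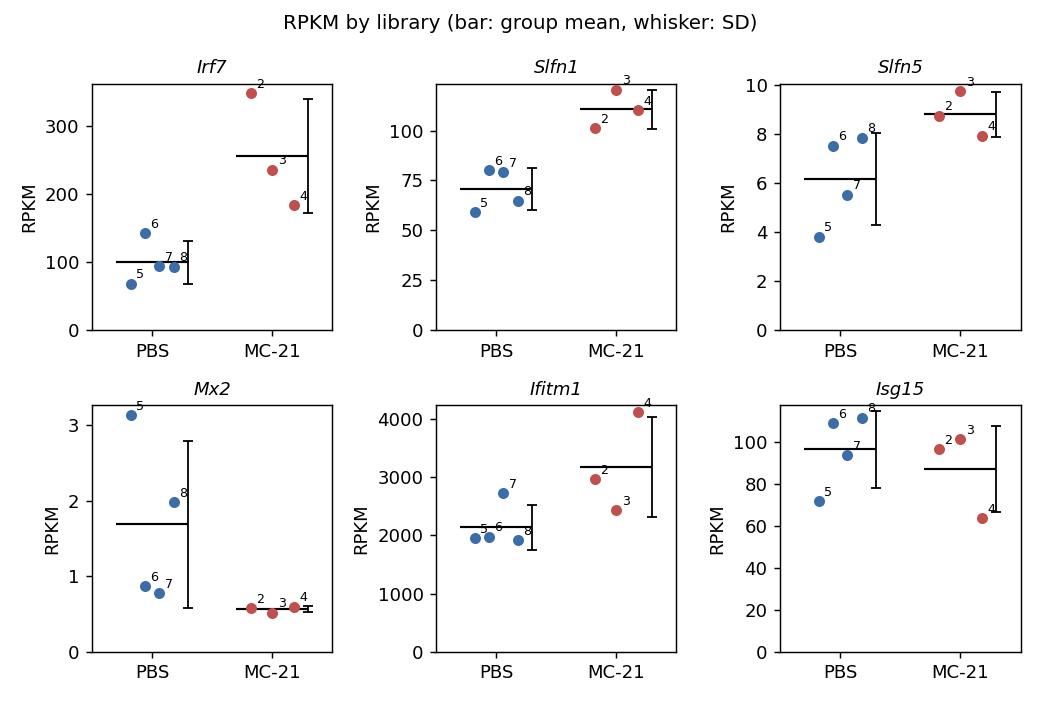
RPKM of Irf7, Slfn1, Slfn5, Mx2, Ifitm1 and Isg15 in each library, with numbers giving the replicate, horizontal bars the group mean and whiskers the SD (4 PBS and 3 MC-21 libraries). The MC-21 libraries of Irf7, Slfn1 and Slfn5 all lie above the PBS libraries and those of Mx2 all lie below, while Ifitm1 and Isg15 overlap.

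The IFITM proteins are small membrane proteins that block the entry of viruses, and Ifitm1, Ifitm2 and Ifitm3 had the highest RPKM of the members. Ifitm1 had 1948, 1976, 2721 and 1914 RPKM in PBS and 2965, 2433 and 4118 RPKM in MC-21 neutrophils. Only MC-21 replicate 3 and PBS replicate 7 crossed. The difference was 1.46-fold (log2 fold change 0.55, 95% interval 0.11 to 0.99, adjusted p = 0.26 by limma, exact permutation p = 0.086). Ifitm2 had 1269, 935, 1134 and 1143 RPKM in PBS and 998, 1069 and 1162 RPKM in MC-21 neutrophils. Ifitm3 had 622, 517, 444 and 589 RPKM in PBS and 494, 567 and 612 RPKM in MC-21 neutrophils. Neither separated the groups, with log2 fold changes of -0.052 (95% interval -0.35 to 0.25) and 0.045 (95% interval -0.29 to 0.38), and both signs turned in some alternatives, Ifitm2 to 0.11 after centring and Ifitm3 to -0.048 without PBS replicate 7. Ifitm6 was lower in level, at 31.6 ± 12.8 RPKM (SD, n = 4) in PBS and 37.3 ± 6.00 RPKM (SD, n = 3) in MC-21 neutrophils. Between 6.36% and 11.1% of the 50-base words of Ifitm1, Ifitm2 and Ifitm3 transcripts were shared with another gene, and 11.8% to 14.0% in their last 500 bases. Part of their reads could therefore be divided between them.

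Isg15 encodes a ubiquitin-like protein that is attached to other proteins and also secreted, and Usp18 the protease that removes it and restrains signalling at the type I receptor. Isg15 had 71.8, 109, 94.0 and 112 RPKM in PBS and 96.6, 101 and 63.7 RPKM in MC-21 neutrophils. The groups overlapped, and its log2 fold change of -0.15 (95% interval -0.63 to 0.32) turned to 0.0089 after centring and to 0.054 without MC-21 replicate 4. Usp18 had 5.51, 5.09, 5.52 and 8.12 RPKM in PBS and 9.01, 6.39 and 2.23 RPKM in MC-21 neutrophils. Here the MC-21 libraries held both the highest and the lowest value, and the log2 fold change of -0.17 became 0.30 without MC-21 replicate 4 and 0.016 under quantile normalization.

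Genes that encode proteins acting on viral RNA were low to moderate in level and overlapped between the groups. Ifit3, which binds other IFIT proteins on foreign RNA, was at 9.59 ± 2.97 RPKM (SD, n = 4) in PBS and 7.60 ± 1.80 RPKM (SD, n = 3) in MC-21 neutrophils. Of its 50-base words, 51.5% were shared with a neighbouring copy, I830012O16Rik, but 14.9% in its last 500 bases, the end from which 3' reads come. Ifit2 was at 2.12 ± 0.69 RPKM (SD, n = 4) and 1.39 ± 1.14 RPKM (SD, n = 3) in the same order. The oligoadenylate synthetases, which activate RNase L when they meet double-stranded RNA, had log2 fold changes from -0.37 (Oasl1) to 0.0022 (Oas1a), with Oas2 at 30.4 ± 3.28 RPKM (SD, n = 4) in PBS and 29.1 ± 4.35 RPKM (SD, n = 3) in MC-21 neutrophils. Oas3 was at 20.2 ± 4.51 and 18.4 ± 4.77 RPKM. Oas1a shared 57.1% of its 50-base words with Oas1g and Oas1b, which makes its own level uncertain. Oasl1, a relative without synthetase activity, had 18.4, 25.6, 25.0 and 26.1 RPKM in PBS and 21.7, 27.2 and 9.65 RPKM in MC-21 neutrophils. A single low library in each group set its spread, and without MC-21 replicate 4 its log2 fold change was 0.045.

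Mx2, of the family of dynamin-like GTPases, was the member without overlap in the lower direction. Its mean was 1.69 RPKM in PBS and 0.56 RPKM in MC-21 neutrophils. It therefore passed the limit of 1 RPKM only through the group where it was higher. Its RPKM was 3.13, 0.87, 0.78 and 1.98 in PBS and 0.58, 0.52 and 0.59 in MC-21 neutrophils. The MC-21 libraries lay close together just under the lowest PBS libraries, and these values rested on about 2 to 21 reads per library. The log2 fold change was -0.69 (95% interval -1.40 to 0.0104, adjusted p = 0.35 by limma, exact permutation p = 0.17), and -1.22 with a pseudocount of 0.1. After centring or quantile normalization the groups of Mx2 overlapped. Mx1, which was not tested, was listed at 0.37, 0.81, 0.89 and 0.51 RPKM in PBS and at 0, 0 and 0.12 RPKM in MC-21 neutrophils. The groups of Mx1 did not overlap either, with 4.77% of its 50-base words held by Mx2 and 0% of those in its last 500 bases shared with another gene. Both Mx genes and the summed monocyte and macrophage markers were lower in the MC-21 group, although within the PBS group Mx2 was highest in replicate 5, where that sum was lowest (462 RPKM). The part of those cells in the difference was not tested. Rsad2, which encodes viperin, an enzyme that makes a chain-terminating nucleotide, was at 25.1 ± 6.47 RPKM (SD, n = 4) in PBS and 22.2 ± 5.55 RPKM (SD, n = 3) in MC-21 neutrophils. Cmpk2, its neighbour and partner in nucleotide metabolism, was untested with 0 to 1.41 RPKM.

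GTPases that act on membranes of intracellular microbes gave 5 negative values of 6, where 69.4% of all genes tested were lower, a share that depended on scaling. Among the guanylate-binding proteins, Gbp3 had the lowest fold change of all members (-0.72 on the log2 scale, 95% interval -1.62 to 0.17), at 2.54 ± 0.64 RPKM (SD, n = 4) in PBS and 1.41 ± 1.29 RPKM (SD, n = 3) in MC-21 neutrophils. It was listed at 0 in MC-21 replicate 4. Gbp2 and Gbp7 had log2 fold changes of -0.54 and 0.054, and Gbp5 was untested with 0 to 0.67 RPKM. Of the immunity-related GTPases, Igtp was the most abundant at 24.7 ± 3.11 RPKM (SD, n = 4) in PBS and 22.2 ± 3.99 RPKM (SD, n = 3) in MC-21 neutrophils. The log2 fold changes of Igtp, Irgm1 and Iigp1 were -0.16, -0.39 and -0.062, with overlapping groups.

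The sensors of foreign nucleic acid overlapped in all 4 cases. Ddx58, which encodes the RNA sensor RIG-I, was at 9.93 ± 1.10 RPKM (SD, n = 4) in PBS and 10.7 ± 3.31 RPKM (SD, n = 3) in MC-21 neutrophils. Ifih1, which encodes the related sensor MDA5, and Dhx58, which encodes their regulator LGP2, had log2 fold changes of -0.21 and -0.28. Zbp1, a sensor of left-handed nucleic acid that can start necroptosis, had 13.7, 20.3, 13.7 and 14.5 RPKM in PBS and 22.1, 17.2 and 15.0 RPKM in MC-21 neutrophils. Although all 3 MC-21 values exceeded those of PBS replicates 5, 7 and 8, the log2 fold change of 0.21 had an interval from -0.24 to 0.66.

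All 6 of the remaining effectors that were tested had negative values, none with a p under 0.05, where 69.4% of all genes tested were lower. Such shares depended on scaling, as described above. Bst2, which encodes tetherin, a protein that holds budding virus at the cell surface, was the most abundant of them. It had 457, 411, 394 and 433 RPKM in PBS and 373, 416 and 294 RPKM in MC-21 neutrophils. Only MC-21 replicate 3 reached into the PBS range, and the log2 fold change was -0.24 (95% interval -0.57 to 0.0803, adjusted p = 0.47 by limma). Rtp4, a chaperone of G-protein-coupled receptors, had a log2 fold change of -0.44 that came with 1 low library, since MC-21 replicate 4 held 18.5 RPKM and all others between 54.0 and 78.8 RPKM. Xaf1, Ifi35, Parp14 and Trim30a had log2 fold changes of -0.25, -0.15, -0.12 and -0.33, and Ifi44 was untested with 0 to 1.30 RPKM. Cd274, which encodes the checkpoint ligand PD-L1, was at 17.4 ± 10.6 RPKM (SD, n = 4) in PBS and 16.4 ± 2.23 RPKM (SD, n = 3) in MC-21 neutrophils, with a PBS range from 5.77 to 26.5 RPKM.

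The members differed among libraries in ways that the groups did not follow. MC-21 replicate 4 held the lowest value of 20 of the 38 members (52.6%), against 27.8% of all tested genes. Its median deviation from a gene's mean was -0.42 on the log2 scale over the members and -0.13 over all genes. In MC-21 replicates 2 and 3 the median member lay above its mean, by 0.12 and 0.14. PBS replicate 5 held the lowest value of 9 members (23.7%, against 12.0% of all genes), so that low libraries occurred in both groups.

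A second pattern ran through MC-21 replicate 2 and PBS replicates 6 and 7, which lay at one end of the second principal component of all genes (26.6% of the variance). Oasl2, Gbp2, Irgm1, Ifih1, Trim30a and Slfn4 were each higher in these 3 libraries than in the other 4, which is 6 of 38 members (15.8%) against 7.30% of all genes. Oasl2, for example, had 12.3, 18.2 and 24.4 RPKM in these libraries and between 2.19 and 3.55 RPKM in the others. Irgm1 had 7.69, 8.44 and 8.42 RPKM in these libraries and between 1.14 and 2.83 RPKM in the others. Ifitm3 and Irf9 were lower in the same 3 libraries than in the other 4 (5.26% of members against 3.34% of all genes). The median GC content of transcripts was 45.1% for the 6 members and 48.4% for all 38, and among all genes 44.8% for those with the pattern and 51.2% overall. The part of base composition in this pattern was not tested.

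**Figure D3:**
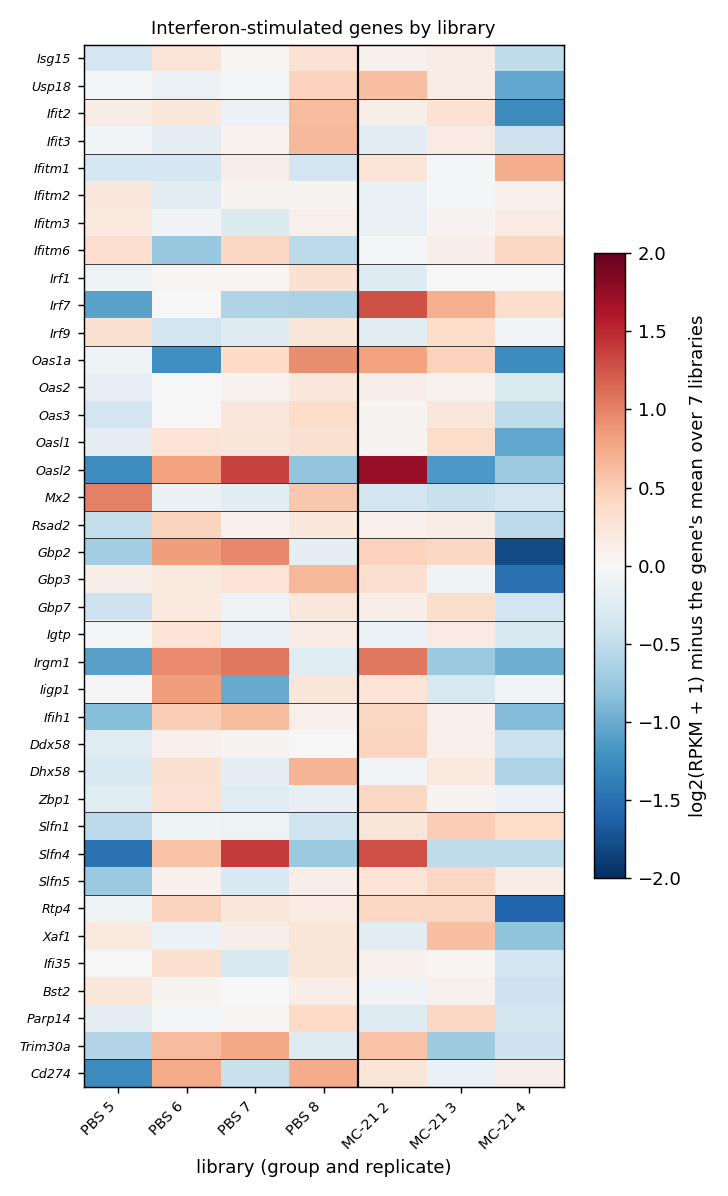
Interferon-stimulated genes (rows, ordered by role, separated by thin lines) in the 4 PBS and 3 MC-21 libraries (columns), coloured by log2(RPKM + 1) minus the mean of the gene over the 7 libraries, with the scale ending at -2 and 2. Irf7 is red in the 3 MC-21 libraries, MC-21 replicate 4 is blue for many other members, and Oasl2, Irgm1 and Slfn4 are red in MC-21 replicate 2 and PBS replicates 6 and 7.

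Genes acting before or beside the members were drawn from a second list of 82 genes of the interferon pathway, of which 69 were in the table and 60 were tested. None had an adjusted p under 0.05. With an unadjusted p under 0.05, 3 of the 60 were higher and 4 lower, where 3.59% of all genes were higher and 11.2% lower, and the median log2 fold change was -0.10 against -0.15 over all genes. Of 10 listed interferons only Ifng was in the table used, at 0 to 0.50 RPKM in PBS and 0 to 0.30 RPKM in MC-21 neutrophils.

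Among the receptors, the ligand-binding chain of the interferon-gamma receptor stood apart. Ifngr1 had 82.6, 94.5, 81.4 and 87.2 RPKM in PBS and 129, 126 and 166 RPKM in MC-21 neutrophils. The gap between the groups was wide relative to the spread of PBS libraries, and the difference was 1.61-fold (log2 fold change 0.68, 95% interval 0.36 to 1.01, adjusted p = 0.076 by limma, exact permutation p = 0.0286). Its partner chain Ifngr2 had 78.3, 96.0, 86.6 and 90.4 RPKM in PBS and 68.0, 82.9 and 83.0 RPKM in MC-21 neutrophils, a log2 fold change of -0.17. The chains of the type I receptor did not separate the groups. Ifnar1 had 5.67, 8.05, 6.92 and 8.35 RPKM in PBS and 6.59, 6.45 and 5.28 RPKM in MC-21 neutrophils. Ifnar2 had 42.3, 63.4, 49.0 and 45.9 RPKM in PBS and 54.8, 51.3 and 44.7 RPKM in MC-21 neutrophils, a log2 fold change of 0.016 that turned to -0.052 with the second component as a covariate. For the type III receptor, Ifnlr1 was at 5.72 ± 1.74 RPKM (SD, n = 4) and 5.23 ± 1.06 RPKM (SD, n = 3), a log2 fold change of -0.088 that turned to 0.076 after centring, and Il10rb was at 95.5 ± 12.7 RPKM (SD, n = 4) and 108 ± 10.6 RPKM (SD, n = 3).

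Of the kinases, Jak2, which serves the interferon-gamma receptor and several cytokine receptors, had 23.0, 39.5, 28.6 and 33.6 RPKM in PBS and 65.3, 53.1 and 56.9 RPKM in MC-21 neutrophils. It was 1.88-fold higher without overlap (log2 fold change 0.91, adjusted p = 0.0779 by limma), and the adjusted p was 0.041 after centring and 0.0447 without PBS replicate 6. Tyk2, which serves the type I receptor, was lower in every MC-21 library, at 5.28 ± 0.44 RPKM (SD, n = 4) in PBS and 3.56 ± 0.10 RPKM (SD, n = 3) in MC-21 neutrophils (log2 fold change -0.46, adjusted p = 0.26 by limma). Jak1 was at 97.4 ± 5.99 RPKM (SD, n = 4) and 97.1 ± 10.8 RPKM (SD, n = 3).

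Stat2, which encodes a subunit of the factor that binds the ISRE, did not separate the groups. It had 12.9, 8.47, 10.5 and 11.5 RPKM in PBS and 9.94, 11.9 and 10.6 RPKM in MC-21 neutrophils, a log2 fold change of 0.0061. Among feedback inhibitors, Socs1, which blocks JAK kinases, had 8.91, 29.8, 8.99 and 10.2 RPKM in PBS and 46.8, 35.7 and 27.7 RPKM in MC-21 neutrophils. PBS replicate 6 lay within the MC-21 range, and the log2 fold change was 1.44 (95% interval 0.57 to 2.31, adjusted p = 0.16 by limma). Pathway genes with an unadjusted p under 0.05 also included the interferon-induced Ms4a4c and Tor3a, with log2 fold changes of -1.30 and -0.49. Ms4a4c averaged 1.97 RPKM in PBS and 0.19 RPKM in MC-21 neutrophils. It passed the limit of 1 RPKM only through PBS neutrophils, which favoured its lower direction.

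**Figure D4:**
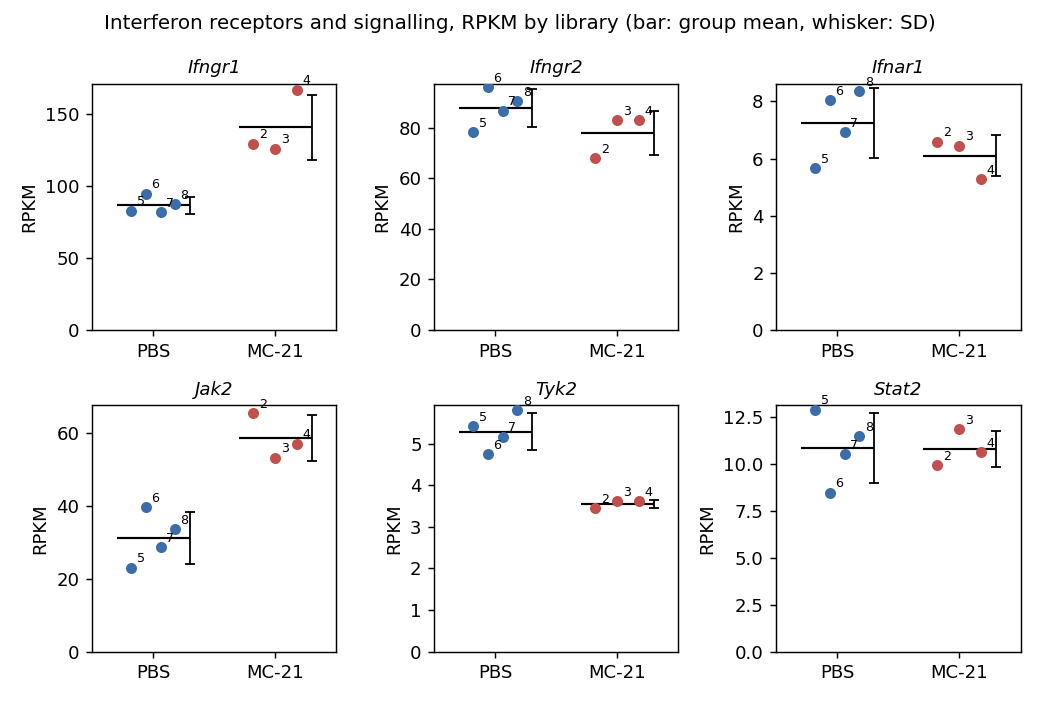
RPKM of the receptor chains Ifngr1, Ifngr2 and Ifnar1 and of Jak2, Tyk2 and Stat2 in each library, with numbers giving the replicate, horizontal bars the group mean and whiskers the SD (4 PBS and 3 MC-21 libraries). All MC-21 libraries of Ifngr1 (126 to 166 RPKM) and Jak2 (53.1 to 65.3 RPKM) lie above the PBS libraries and those of Tyk2 lie below, whereas the groups overlap for the other 3 genes.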

How the data were processed

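Neutrophils from 7 livers (4 PBS, 3 MC-21) were profiled by 3' RNA-seq. The deposited RPKM values were made by the authors. The submitters' processing notes name bcl2fastq, HISAT (version 0.1.5), SAMtools, Partek (version 6.6) and build mm9, and the gene annotation behind the lengths is not given in the sources used here. Since 3' reads do not cover the length of a transcript, dividing by length lowers long genes relative to short ones. This affects levels between genes and which genes reach 1 RPKM. Through the 1 added in log2(RPKM + 1) it also affects the fold changes of low genes. Total reads are not part of the table. The value of 1 read was estimated from steps among low values of 1795 genes with a single transcript, and between 74.8% and 78.7% of low values came within 0.1 of a whole number of reads, which did not allow counts to be rebuilt.

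Genes averaging 1 RPKM or more were tested on log2(RPKM + 1) with limma (version 3.58.1, R 4.3.3, trended variance, no covariate) and Benjamini-Hochberg adjustment over 9594 genes. Fold changes on this scale understate those of low genes. The 2-fold limit with an unadjusted p under 0.05 follows the study's methods, but the study took its p from an unpaired, two-tailed t-test. In data simulated for this comparison with 9594 genes, 169 of 200 genes changed by 2 on the log2 scale were called (84.5%), with 8 unchanged genes. Recovery of smaller differences, such as the log2 fold change of 1.36 for Irf7, was not tested. Other tables were made with Python 3.11.15, numpy 2.4.6 and pandas 2.3.3.

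The members and all lists were chosen with earlier results of these data known. Values per library are given for members without overlap, the 6 with the highest mean, those with an outlying PBS library, Irf7, Irf9, Stat2 and the receptors. The chains of the type III receptor are an exception and are given as group means. One pathway gene of this rule is not reported here. Other members given by library (Slfn4, Oasl2, Irgm1 and the untested Mx1), and the pathway genes Jak2, Tyk2, Socs1, Ms4a4c, Tor3a, Slfn2 and Slfn8, were chosen after their values were seen. Gene positions came from the mm9 annotation (GENCODE vM1), and printed promoter stretches were located in mm9 by exact match. Alternatives were centring on library medians, quantile normalization, a pseudocount of 0.1, a limit of 5 RPKM or none, no variance trend, ordinary residual variance, each library left out and, chosen after seeing the data, the second principal component as a covariate. Each liver gave 1 library, so p-values measure the spread between mice.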

Additional observations from a re-analysis of the deposited data

Results flagged for a closer look

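In 4 of the 38 members, 1 PBS library lay apart from the other 3 by Dixon's ratio, a criterion that chance meets in about 1 group of 20. MC-21 neutrophils, with 3 libraries, were not examined this way. Ifitm1 was highest in PBS replicate 7 with 2721 RPKM, where the other PBS libraries held 1914 to 1976 RPKM. Usp18 was highest in PBS replicate 8 with 8.12 RPKM, against 5.09 to 5.52 RPKM. Zbp1 was highest in PBS replicate 6 with 20.3 RPKM, against 13.7 to 14.5 RPKM. Oasl1 was lowest in PBS replicate 5 with 18.4 RPKM, against 25.0 to 26.1 RPKM. A different library stood out each time.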

How the results depend on the processing

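Of 329 recomputed fold changes of single genes, 299 kept their direction and their side of the adjusted p threshold. Another 89 recomputed values were counts and medians. Of these, 79 stayed near the main value, a looser criterion under which the members' median could change sign. The number of members with an adjusted p under 0.05 was 0, and 1 (Irf7) after centring, 1 with the second component as a covariate and 0 to 1 with a library left out. Members with an unadjusted p under 0.05 numbered 3, with 6 under the second component (3 higher and 3 lower) and 2 to 5 with a library left out (5 without PBS replicate 6). With the 2-fold limit the count was 1 to 2, being 2 without MC-21 replicate 2, and members without overlap numbered 4 to 9 with a library left out, being 9 without MC-21 replicate 3. They numbered 3 after centring, under quantile normalization and at the limit of 5 RPKM, where Irf7, Slfn1 and Slfn5 remained and Mx2 overlapped or was not tested. Pathway genes with an adjusted p under 0.05 numbered 1 after centring, 2 with the second component and 0 to 2 with a library left out (2 without PBS replicate 6). The members' median ranged from -0.23 to 0.068 with a library left out. Small differences changed sign. Centring gave 0.11 for Ifitm2, 0.0089 for Isg15 and 0.076 for Ifnlr1, quantile normalization 0.016 for Usp18 and 0.082 for Ifnlr1, and the second component -0.052 for Ifnar2. Leaving out a library gave -0.14 to 0.011 for Ifitm2, -0.048 to 0.13 for Ifitm3, -0.12 to 0.18 for Irf9, -0.29 to 0.054 for Isg15, -0.66 to 0.045 for Oasl1, -0.51 to 0.30 for Usp18, -0.097 to 0.088 for Stat2, -0.059 to 0.13 for Ifnar2 and -0.24 to 0.058 for Ifnlr1. Why these values moved was not tested. Over all genes, 4 (ordinary residual variance) to 152 (second component) had an adjusted p under 0.05. At 1.59 to 3.96 reads per RPKM and kb, members near 1 RPKM rest on few reads. No paired analysis was possible because the groups share no replicate numbers.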
